A study of Homo sapiens with 4 samples.

Results

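Peaks of FOXC1 lay in 544 regions at promoters of long non-coding RNA (lncRNA) genes away from protein-coding promoters, which was 4.11% of the 13228 regions that both replicates of the FOXC1 ChIP-seq shared. To choose them, peaks of both replicates that overlapped by at least 1 bp were merged, and merged regions on chromosomes 1 to 22 and X with a peak of each replicate were kept. The summit of a region was the midpoint between the replicates' summits. A region was counted when its summit lay within 2 kb of a transcript start site of a lncRNA gene and not within 2 kb of a start site of any protein-coding gene. A further 299 shared regions lay near both kinds of start. They counted as protein-coding promoter regions in each comparison below, as 16.7% of that class. Among the shared regions, the choice used position and neither signal nor sequence. The need for a peak in each replicate is itself a filter on signal, which bears on the enrichment and sequence of all shared regions. Values from the peaks of a single replicate differed and are given at the end.

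The study examined J82, an established line of human bladder cancer cells kept in DMEM with 10% FBS. Its 4 libraries were 2 biological replicates of ChIP with the antibody anti-FOXC1 (D8A6) and 2 input libraries prepared from chromatin with no antibody, all read from one end for 75 bp. Peak lists of the 2 ChIP replicates were analysed here, and the inputs entered only as the background of the authors' peak calling. All values therefore come from a single cell line in a single condition, with no cells lacking FOXC1 for comparison.

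FOXC1 belongs to the forkhead transcription factors, which read an A-rich DNA word through a winged-helix domain. It is known for its roles in development of the eye, the vessels and the skeleton and in aggressive carcinomas. LncRNAs are transcripts without a long reading frame that are made by RNA polymerase II from promoters of their own, many of them at enhancers or opposite to protein-coding genes. Some serve as precursors of microRNAs, and others act as RNAs near the site where they are made. AP-1, a dimer of JUN and FOS family proteins, is a second factor whose word is common at open chromatin of epithelial cancer cells.

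The sequences at the summits of the leading regions and of regions at well-known lncRNA genes show what the summits held. Each run below holds the GRCh37 (hg19) reference on the + strand from 50 bp before to 50 bp after the summit, and capitals mark the forkhead consensus (GTAAACA and its variant ATAAACA, or with T as the next to last letter GTAAATA and its variant ATAAATA, on either strand), the CCAA-extended forkhead element, or the AP-1 sequence (TGACTCA, or read from the other strand TGAGTCA). The first 4 belong to the 6 best-ranked regions, by the poorer −log10 p rank of both replicates, and the last 3 to listed lncRNA genes in which the consensus was present.
PRICKLE2-AS3, chr3:64172945-64173045: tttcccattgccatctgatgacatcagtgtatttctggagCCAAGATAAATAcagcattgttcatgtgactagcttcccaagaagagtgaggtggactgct
LINC01108, chr6:14286505-14286605: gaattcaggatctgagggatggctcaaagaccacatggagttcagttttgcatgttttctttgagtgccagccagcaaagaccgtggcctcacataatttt
ENSG00000285100, chr20:36899622-36899722: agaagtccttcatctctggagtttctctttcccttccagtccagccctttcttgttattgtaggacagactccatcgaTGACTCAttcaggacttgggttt
NTRAS, chr1:211812893-211812993: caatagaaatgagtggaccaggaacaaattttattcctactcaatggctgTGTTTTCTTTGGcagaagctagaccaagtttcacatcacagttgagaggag
SAMMSON, chr3:70330916-70331016: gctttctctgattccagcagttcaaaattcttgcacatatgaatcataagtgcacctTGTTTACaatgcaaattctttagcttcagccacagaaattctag
GATA3-AS1 and ENSG00000232638, chr10:8092735-8092835: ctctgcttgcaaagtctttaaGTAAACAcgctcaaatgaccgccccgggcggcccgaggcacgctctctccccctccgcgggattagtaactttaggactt
DLEU2 and ENSG00000274270, chr13:50700555-50700655: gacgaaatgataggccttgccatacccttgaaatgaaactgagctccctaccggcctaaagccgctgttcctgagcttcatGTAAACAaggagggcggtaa
The first region held a consensus word inside the extended element, within 5 bp of its summit. The LINC01108 region, second in this rank, held none of the searched words. The ENSG00000285100 region held the AP-1 sequence, with no forkhead word, and the NTRAS region held the extended element without the strict consensus. The regions at SAMMSON, GATA3-AS1 and DLEU2 each held 1 word of the consensus at or within 34 bp of the summit.

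To examine how strongly the lncRNA promoter regions were bound, the fold enrichment of each region was compared between replicates. Fold enrichment is the pileup of ChIP fragments at the summit over the local background, as given in the authors' peak lists. Its median was 3.77 in replicate 1 and 6.46 in replicate 2, or 5.12 ± 1.91 (SD, n = 2 replicates). The middle of the distribution spanned 2.90 to 5.31 (quartiles) in replicate 1 and 4.48 to 10.5 in replicate 2. Protein-coding promoter regions had medians of 3.70 and 6.74, regions outside promoters 3.804 and 6.71, and all shared regions 3.78 and 6.71. The medians of these classes thus lay close together within each replicate. The larger gap between replicates was common to all of them, so it does not measure the error of a comparison within a replicate. Single regions ranged from 1.57 to 59.9 in replicate 1 and from 2.08 to 84.3 in replicate 2. A fold enrichment of 5 or more in both replicates was found at 153 regions, 167 were below 5 in both, and 23 had a mean above 20.

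**Figure D1:**
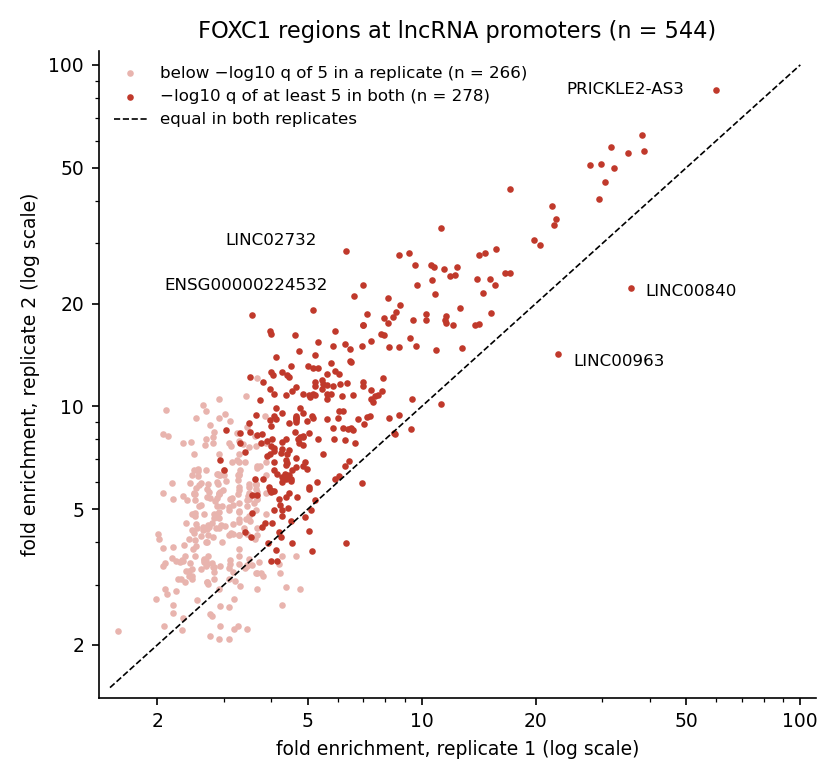
Fold enrichment of the 544 lncRNA promoter regions in replicate 1 (x axis) and replicate 2 (y axis), both on log scales, 1 point per region; the dashed line marks equal values. Dark points passed a −log10 q of 5 in both replicates (278 regions) and most points (495) lie above the line, with LINC00840 and LINC00963 as strong regions below it.

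Leading regions were taken in order of the poorer −log10 p rank of both replicates. The first by this rank, and the highest in fold enrichment in each replicate, lay 225 bp upstream of PRICKLE2-AS3, a gene antisense to PRICKLE2, which encodes a planar cell polarity protein. Its fold enrichment was 59.9 in replicate 1 and 84.3 in replicate 2 (mean 72.1 ± 17.2 SD), with 409 and 500 reads over the summit. The region (chr3:64172459-64173675) fell in an intron of PRICKLE2, 23407 bp from the nearest protein-coding start site. Second by rank, though not by fold enrichment, was a region 870 bp upstream of LINC01108 (chr6:14286031-14287063), at 35.0 and 55.3, with 411 and 476 reads. Both stood well clear of the class medians in each replicate. A region 32 bp upstream of NTRAS (chr1:211812467-211813612) reached 38.5 and 55.8, and its summit fell in a lncRNA exon.

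Genes known only by an Ensembl identifier were common among the leading regions. The region 107 bp upstream of ENSG00000257746 (chr12:93483533-93484825) had 38.3 in replicate 1 and 62.4 in replicate 2, and the region 492 bp downstream of the start of ENSG00000285100 (chr20:36899263-36900121) had 30.5 and 45.5. The region 1248 bp upstream of ENSG00000236098 (chr1:94790883-94792003) had 32.2 and 49.7, and the region 1760 bp downstream of the start of ENSG00000257496 (chr12:46885887-46887095) had 31.5 and 57.4. Of the 12 leading regions, 8 lay nearest to a gene without a symbol, and all 12 were higher in replicate 2. The others of the 12 lay at ENSG00000253672 (27.9 and 51.0), PVT1 (29.7 and 51.4), ENSG00000249061 (22.1 and 38.5), ENSG00000284719 (20.6 and 29.7) and ENSG00000286561 (22.3 and 33.9). Of these 12 summits, 5 held the forkhead consensus, 4 the extended element and 3 the AP-1 sequence, and 2 held none of them. Over all shared regions the consensus was present at 48.6%, the extended element at 7.24% and the AP-1 sequence at 16.6%.

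To assess how far the replicates differed at each region, the ratio of replicate 2 to replicate 1 was taken. Fold enrichment was higher in replicate 2 at 495 of 544 regions (91.0%, interval 88.3 to 93.3%), compared with 91.9% of all shared regions. The median ratio was 1.65, against 1.74 at protein-coding promoters and 1.68 outside promoters. The log2 ratio had an SD of 0.53 across the lncRNA promoter regions. Spearman's rho of fold enrichment between the replicates was 0.74 across the 544 regions, a description only, since regions of the same libraries are not independent. The reads over a summit, worked out from the deposited values, were few, with medians of 23 and 43 in replicates 1 and 2, so the value of a typical region was imprecise. The replicates' summits lay a median of 28.5 bp apart.

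The regions that departed most from the common shift between replicates did so in both directions. LINC00840 had the highest fold enrichment among regions that were lower in replicate 2, at 35.6 in replicate 1 and 22.2 in replicate 2, although its reads went from 183 to 269. LINC00963 had 22.9 and 14.3, with 127 and 125 reads. At ENSG00000254337 (4.78 and 2.92) and LINC01808 (4.26 and 2.62) the ratios were 0.612 and 0.616. In all, 49 regions had a ratio below 1 and 30 a ratio above 3. Ratios above 3 were not counted in the other shared regions. The largest ratio, 5.19, was at ENSG00000224532, whose region 24 bp upstream of the start had 3.56 in replicate 1 and 18.5 in replicate 2, with 41 and 116 reads. LINC01181 (2.11 and 9.72), LINC02732 (6.31 and 28.5) and LINC01765 (3.96 and 16.6) followed. With 1 value per replicate, none of these differences could be tested.

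The share of regions past a threshold was next compared with the rest of the shared regions. A −log10 q of at least 5 in both replicates was reached at 278 of 544 lncRNA promoter regions (51.1%, interval 46.8 to 55.4%), compared with 50.7% of all shared regions. A q-value of 0.05 or less in both was reached at 470 (86.4%, interval 83.2 to 89.2%), compared with 88.4% of all shared regions. Both shares lay close to those of the whole set. Shared regions were also ranked by −log10 p, taking the poorer of both replicates. In this order, 17 lncRNA promoter regions (3.13%) stood among ranks up to 500, compared with 3.20% of all shared regions. These intervals cover counting error alone.

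To describe where FOXC1 sat relative to the start of the transcripts, distances from summit to the nearest lncRNA start site were counted. Summits were concentrated around the start site, and within 250 bp of it more lay upstream than downstream. They lay within 100 bp of it at 85 regions (15.6%, interval 12.7 to 18.95%), within 250 bp at 168 (30.9%), within 500 bp at 240 (44.1%) and within 1000 bp at 345 (63.4%), and the median distance was 649 bp. Counted per 100 bp, this was 33.6 regions within 250 bp, 11.8 between 250 and 1000 bp and 9.95 between 1000 and 2000 bp. The fullest step of 100 bp was the one just upstream of the start, with 53 regions, followed by 41 in the next step upstream and 31 in the first step downstream. Within 250 bp, 107 of 168 summits were upstream (63.7%, interval 55.9 to 71.0%), whereas between 250 and 1000 bp 93 of 177 were (52.5%, interval 44.9 to 60.1%) and between 1000 and 2000 bp 92 of 199 (46.2%, interval 39.2 to 53.4%). Over all 544 regions, 292 summits were upstream (53.7%, interval 49.4 to 57.9%).

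**Figure D2:**
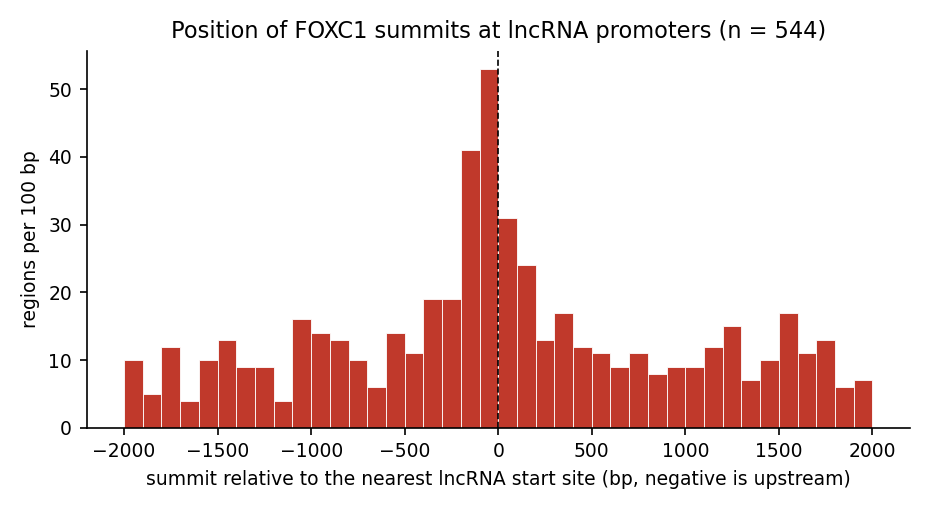
Number of lncRNA promoter regions (y axis, per 100 bp) by the position of the summit relative to the nearest lncRNA start site (x axis, bp, upstream negative), for all 544 regions. Counts rise to 53 in the 100 bp upstream of the start and level off at about 9.95 per 100 bp beyond 1000 bp.

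Protein-coding promoter regions showed nearly the same pattern close to the start. There, 15.9% of 1788 summits lay within 100 bp of a protein-coding start site and 46.1% within 500 bp, differences from lncRNA promoters of −0.26 points (interval −3.58 to 3.41) and −2.02 points (interval −6.75 to 2.76). Within 1000 bp the shares were 63.4% and 68.5%, a difference of −5.09 points (interval −9.73 to −0.585). The nearest region inside the 2 kb limit was at 1996 bp from ENSG00000229618, with a fold enrichment of 5.03 and 10.8. The nearest outside was at 2020 bp from ENSG00000271897, with 11.2 and 18.6 in replicates 1 and 2.

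Regions with a very close summit that passed a −log10 q of 5 in both replicates included an internal start of MIR99AHG, 7 bp downstream of the summit, with fold enrichments of 9.49 and 17.9 in the respective replicates. At ENSG00000268560 and LINC03026 the summit lay 8 bp from a start, at 4.27 and 12.6 for the former and 7.29 and 9.39 for the latter. ALKBH3-AS1, named as antisense to the DNA repair gene ALKBH3, had a summit 9 bp upstream of its start, at 6.996 and 17.3.

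The 544 regions touched 541 lncRNA genes, 2.91% of the 18576 annotated. More than 1 region was found at 36 of these genes, and 33 regions lay within 2 kb of several lncRNA genes. DLGAP1-AS2, antisense to the synaptic scaffold gene DLGAP1, was the single gene with 3. Their fold enrichments were 4.23 in replicate 1 and 3.24 in replicate 2 at the region 93 bp upstream of a start, 2.90 and 2.08 at the region 898 bp downstream, and 3.26 and 8.34 at the region 1991 bp downstream. All were modest, and they did not keep the same order in the replicates. ENSG00000285100, ENSG00000236098 and ENSG00000257496 each paired one of the leading regions with a weaker one, at 4.40 and 6.84, 2.33 and 3.52, and 2.64 and 4.43.

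Regions at genes with different kinds of name had medians close to each other. Genes without a symbol held 308 regions (56.6%), with medians of 3.66 in replicate 1 and 6.30 in replicate 2. Intergenic genes of the LINC series held 131 (24.1%), at 3.87 and 6.34, and antisense genes 59 (10.8%), at 4.19 and 7.24. Antisense genes had the highest of these medians in each replicate, and the gaps between kinds were not tested. The 5′ end of the nearest gene lay over 2 kb from the summit at 164 regions, with medians of 3.84 and 6.50 against 3.74 and 6.35 at the 380 regions where the 5′ end lay within 2 kb. The nearest gene of 142 regions is marked in the annotation as new relative to the earlier GRCh37 release, and these had medians of 3.76 and 6.44 against 3.78 and 6.46 at the other 402.

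Regions lay both inside and outside protein-coding genes. The summit lay outside protein-coding genes at 400 regions, in an intron at 130 and in an exon at 14. Beyond the 2 kb that the choice of regions kept clear, the nearest protein-coding start site was a median of 46.1 kb away (quartiles 13.6 to 126.7 kb), within 10 kb at 118 regions and over 100 kb away at 173. Median fold enrichment was 3.72 and 6.51 outside protein-coding genes and 3.79 and 6.30 in their introns, so the order differed between replicates. The share of a chromosome's shared regions that lay at lncRNA promoters ran from 2.16% on chromosome 4 to 7.08% on chromosome 21.

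To see whether the summits carried the word that forkhead factors read, the consensus was searched within 50 bp of each. It was present at 262 of 544 lncRNA promoter summits (48.2%, interval 43.9 to 52.5%), compared with 48.6% of all shared regions. In control windows of the same length 500 bp away, towards higher coordinates, it was present in 63 (11.6%, interval 9.01 to 14.6%), and in those 500 bp towards lower coordinates in 6.99%. The commonest word was GTAAACA at 109 summits (20.04%, control 1.84%), followed by ATAAACA at 92 (16.9%, control 3.31%), ATAAATA at 46 (8.46%, control 5.88%) and GTAAATA at 33 (6.07%, control 1.47%). ATAAATA therefore stood out least from its control, and GTAAACA most. The letters of the consensus in reversed order, which keep its base composition, were present at 14.5% of summits and in 12.7% of control windows.

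The matches were tightly centred. Per 20 bp, a consensus match fell in the step just beyond the summit at 97 regions (17.8%) and in the step just before it at 80 (14.7%), and beyond 60 bp on either side the share was between 0.735 and 4.04%. The nearest match to a summit lay a median of 12 bp away. AP-1 matches were spread more widely, with a median of 26 bp for the nearest.

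**Figure D3:**
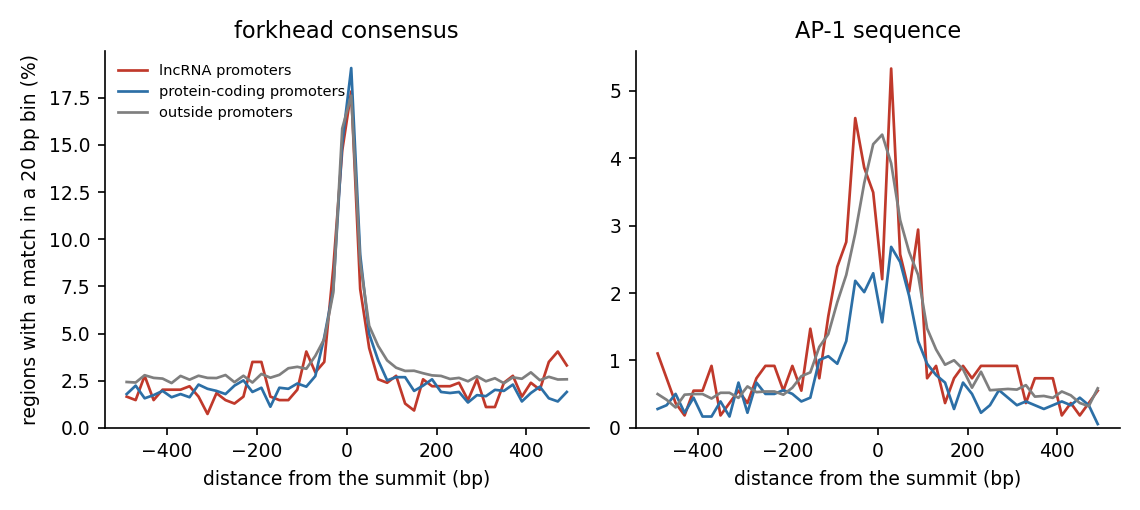
Share of regions with a match of the forkhead consensus (left) or the AP-1 sequence (right) in each 20 bp step (y axis, %) by distance from the summit (x axis, bp), for 544 lncRNA promoter regions, 1788 protein-coding promoter regions and 10575 regions outside promoters. At lncRNA promoters the forkhead share peaks at 17.8% next to the summit, and the AP-1 share peaks at 5.33%, above that of protein-coding promoters.

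The AP-1 sequence was present at 94 lncRNA promoter summits (17.3%, interval 14.2 to 20.7%) and in 9 control windows towards higher coordinates (1.65%), against 3.49% of those towards lower coordinates. Of all shared regions, 16.6% held it at the summit. The share at lncRNA promoters was more than the 10.1% of protein-coding promoter summits, by 7.21 points (interval 3.92 to 10.9), and close to the 17.7% of summits outside promoters (difference −0.46 points, interval −3.50 to 3.02). Both the consensus and AP-1 were present at 30 summits (5.51%), compared with 7.33% of all shared regions. The share was 2.54 points lower than outside promoters (interval −4.25 to −0.238). It was 1.66 points higher than the 3.86% at protein-coding promoters (interval −0.250 to 4.04). At least 1 of the words was present at 59.9% of lncRNA promoter summits and 57.9% of all shared regions. At 218 lncRNA promoter summits neither was found. Median fold enrichment was 4.18 in replicate 1 and 8.27 in replicate 2 at the 30 regions with both, 3.82 and 6.86 at the 232 with the consensus alone, 3.98 and 6.59 at the 64 with AP-1 alone, and 3.64 and 5.92 at the 218 with neither. The order of the single-word groups differed between replicates, while the regions with both words were the highest and those with neither the lowest in each.

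The share of the commonest forkhead word also differed between lncRNA and protein-coding promoters. GTAAACA was present at 20.04% of lncRNA promoter summits and 27.1% of protein-coding promoter summits, a difference of −7.03 points (interval −10.8 to −2.94), whereas the whole consensus was present at 48.2% and 50.8% (difference −2.62 points, interval −7.39 to 2.17). Outside promoters GTAAACA was present at 19.8%, which differed from lncRNA promoters by 0.24 points (interval −3.01 to 3.88). The CCAA-extended element was present at 29 lncRNA promoter summits (5.33%), 5.93% of those at protein-coding promoters and 7.57% of those outside promoters, compared with 7.24% of all shared regions. Among the 50 best-ranked lncRNA promoter regions, 16.0% held the extended element (interval 7.17 to 29.1%), and among the 344 regions ranked below 200 of the 544, 3.49% did (interval 1.82 to 6.01%). The whole consensus was present at 58.0% and 46.2% of the same groups, and their intervals overlapped.

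Base composition differed as well. The median GC content within 50 bp of the summit was 41.6% at lncRNA promoters, 44.6% at protein-coding promoters and 38.6% outside promoters. A CpG-rich summit, with at least 20 CpG within 250 bp, was found at 30 lncRNA promoter regions (5.51%, interval 3.75 to 7.78%), compared with 24.7% at protein-coding promoters and 0.794% outside. The 299 regions near both kinds of start are in the protein-coding class. How far this assignment shapes the differences between the classes was not tested. To leave out CpG-rich summits, the words were counted again in regions with fewer than 20 CpG, a division chosen after the data had been seen. This caps CpG content but does not match it between the classes. AP-1 was then present at 18.1% of 514 lncRNA promoter summits and 12.6% of 1346 protein-coding ones (difference 5.46 points, interval 1.85 to 9.40), and GTAAACA at 19.6% and 25.3% (difference −5.61 points, interval −9.61 to −1.32). Both differences kept their direction and became smaller.

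**Figure D4:**
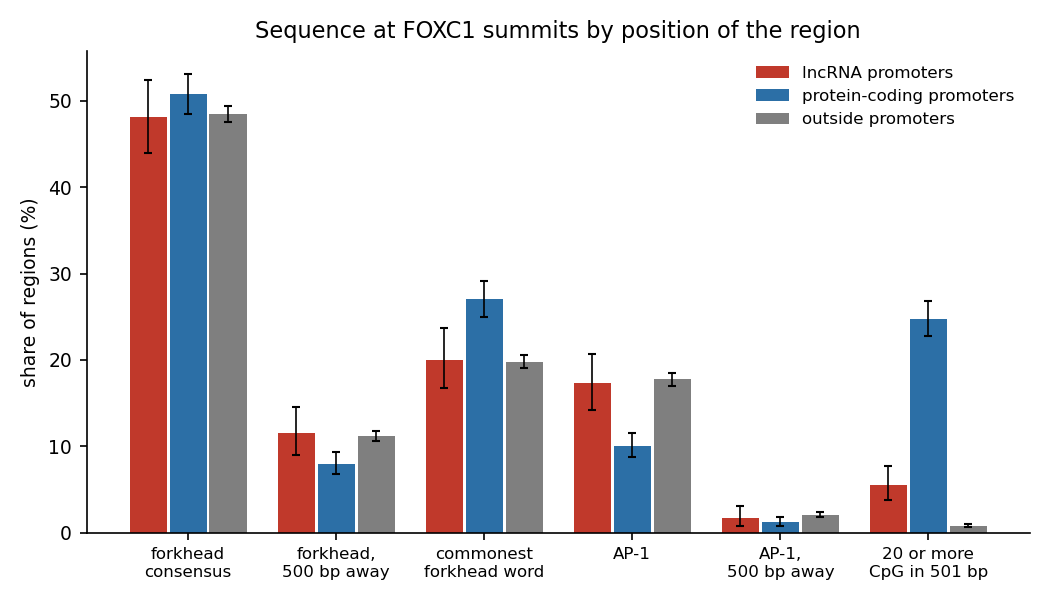
Share of regions (y axis, %) with each sequence feature at the summit or in the control window 500 bp away (x axis) at lncRNA promoters, protein-coding promoters and outside promoters; bars are shares and lines are exact 95% binomial intervals. The lncRNA promoters lie close to the regions outside promoters in the commonest forkhead word (20.04% and 19.8%) and in AP-1 (17.3% and 17.7%), while protein-coding promoters have more CpG-rich summits (24.7%).

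The sequence at the summit was also compared by distance from the lncRNA start site. AP-1 was present at 25.9% of the 85 summits within 100 bp (interval 17.0 to 36.5%), 16.9% between 100 and 250 bp, 16.7% between 250 and 500 bp, 15.2% between 500 and 1000 bp and 15.1% of the 199 between 1000 and 2000 bp (interval 10.4 to 20.8%). At protein-coding promoters the same shares were 9.86, 10.5, 7.04, 11.25 and 10.7%. The intervals within 100 bp, 17.0 to 36.5% at lncRNA and 6.65 to 13.9% at protein-coding starts, did not overlap. CpG content differed in this step, where 11.8% of lncRNA promoter summits and 53.5% of protein-coding ones were CpG-rich. Among CpG-rich summits at any distance, AP-1 was present at 1 of 30 lncRNA ones (3.33%, interval 0.0844 to 17.2%). It was present at 10 of 442 protein-coding ones (2.26%, interval 1.09 to 4.12%). The share of AP-1 within 100 bp at matched CpG content was not tested. The forkhead consensus was present at 42.4, 45.8, 37.5, 49.5 and 54.8% of lncRNA promoter summits in the same steps, with overlapping intervals between the first and the last. From the first of these steps to the last, median GC content fell from 45.5% to 39.6% at lncRNA promoters. At protein-coding promoters it fell from 53.5% to 40.6%.

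To place the regions among lncRNAs that are known from cancer, a list of 82 such genes was examined, of which 74 were annotated under the listed symbol. A lncRNA promoter region was found at 11 of them, beside 2.91% of all annotated lncRNA genes. A gene counted when any of its annotated starts lay within 2 kb of a summit. The number of starts per gene was not held alike, so these shares are not a matched comparison. Others on the list, among them FENDRR, OIP5-AS1, FOXD3-AS1, GATA6-AS1 and NKILA, had a shared region that also lay near a protein-coding start. Such regions were therefore not among the 544. PVT1, a neighbour of MYC that is gained in many tumours, had the strongest lncRNA promoter region of the list. Its fold enrichment was 29.7 in replicate 1 and 51.4 in replicate 2, with 179 and 283 reads. Its summit lay 230 bp upstream of an internal start and 59640 bp from the 5′ end of the gene. SAMMSON, known from melanoma, had 14.7 and 28.1 at an internal start (chr3:70330592-70331340), 1796 bp from the summit.

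GATA3-AS1 runs opposite to GATA3, a regulator of luminal urothelial cells, and had a region at 14.5 in replicate 1 and 21.5 in replicate 2 (chr10:8092386-8093090), 1673 bp downstream of the nearest of its starts and in an intron of GATA3. DLEU2, the host of a microRNA pair lost in leukaemia, had 5.62 and 10.9 at a summit 749 bp upstream of its 5′ end. SBF2-AS1 had 6.58 and 10.8 at 1 region and 2.65 and 4.85 at another. The first summit lay 1380 bp from a start of SBF2-AS1 but 177 bp from that of LINC02709. Starts of other lncRNA genes also lay nearer at GATA3-AS1 (ENSG00000232638, 719 bp), DLEU2 (ENSG00000274270, 653 bp) and PCAT6 (ENSG00000260021, 35 bp). PVT1, SAMMSON, GATA3-AS1, DLEU2 and SBF2-AS1 were the cancer lncRNA genes with a −log10 q of at least 5 in both replicates at 1 region or more. The others had lower values in replicate 1, at 3.42 and 10.7 for CRNDE, 2.85 and 5.27 for HULC, 2.83 and 4.72 for SOX2-OT, 2.82 and 8.39 for PCAT6, 3.04 and 6.04 and also 2.70 and 5.42 for LUCAT1, and 3.63 and 8.20 and also 2.37 and 3.06 for LINC00511. Replicate 2 was the higher at each of them.

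Host genes of small RNAs were examined as a second list, of which 111 were annotated. A lncRNA promoter region was found at 8 of them, again beside 2.91% of all annotated lncRNA genes. The number of starts per gene was not held alike here either. SNHG3 was at a region near a protein-coding start. The strongest was MIR99AHG, host of a let-7 microRNA cluster, at 9.49 in replicate 1 and 17.9 in replicate 2 (chr21:17792111-17792905), with a second region at 2.64 and 10.1. MIR29B2CHG, host of miR-29 family members, had 4.76 and 9.91, and MIR4435-2HG had 4.38 and 6.71. These passed a −log10 q of 5 in both replicates at the first region named. Below that threshold in replicate 1 were MIR222HG (3.29 and 5.81), MIRLET7BHG (3.10 and 7.82), MIR100HG (2.90 and 6.30), MIR31HG (2.81 and 4.13) and MIR17HG (2.58 and 5.89). The region at MIR17HG lay 128 bp upstream of its 5′ end in a CpG-rich stretch with a GC content of 82.2% and no searched word.

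**Figure D5:**
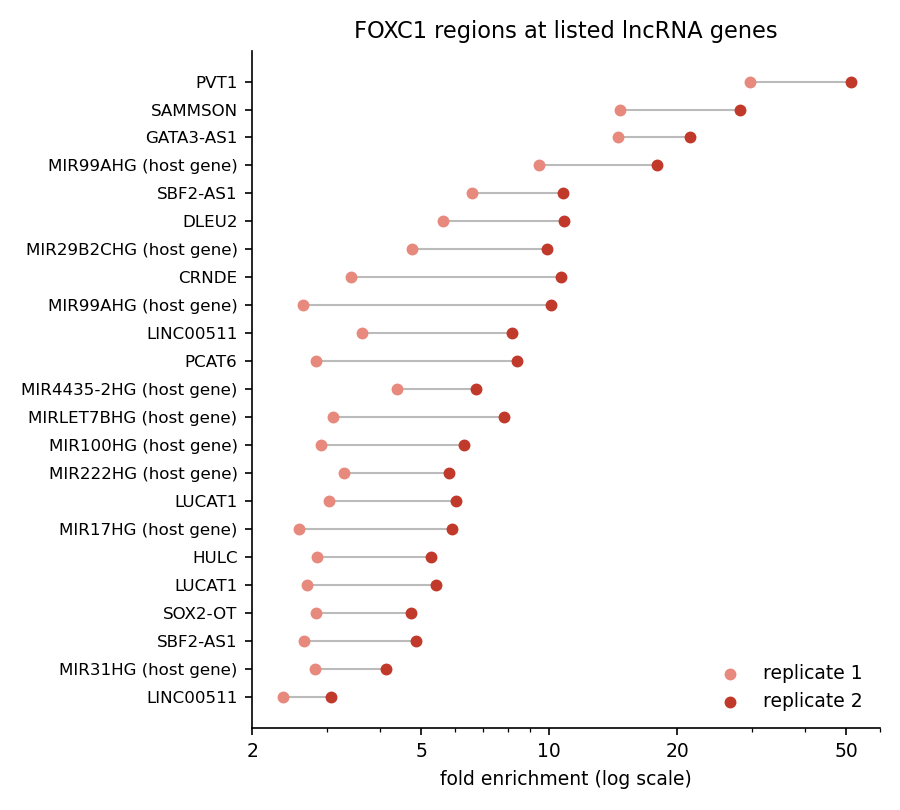
Fold enrichment (x axis, log scale) in replicate 1 and replicate 2 of the 23 lncRNA promoter regions at listed cancer lncRNAs and small RNA host genes (y axis, 1 row per region, ordered by the mean); lines join the replicates. PVT1 (29.7 and 51.4), SAMMSON (14.7 and 28.1) and GATA3-AS1 (14.5 and 21.5) lead, and replicate 2 is the higher in all rows.

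Many of the regions at listed genes lay at internal starts of long genes. The summit was 282265 bp from the 5′ end of SAMMSON, 491987 bp from that of MIR99AHG, 737323 bp from that of SOX2-OT and 375889 bp from that of MIR100HG. At PCAT6 (56 bp), MIR17HG (128 bp), DLEU2 (749 bp), MIR222HG (1219 bp) and MIR31HG (1840 bp) it was the 5′ end itself that lay near. The same held for the nearer regions of LUCAT1 (167 bp) and SBF2-AS1 (1442 bp). No transcript levels were analysed, so whether any of these starts is used in J82 cells was not tested.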

How the data were processed

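FOXC1 ChIP-seq of J82 cells was analysed from 1 peak list for each of the 2 ChIP replicates. The authors aligned reads to hg19 by BWA and used MACS2 2.2.7.1 to call peaks over input. The deposited score is −log10 p multiplied by 10 and cut to a whole number. The fold enrichment that the authors deposited is a ratio of summit pileup to local background, each raised by 1. The −log10 p and −log10 q were also deposited by the authors, who called each replicate on its own. The limit behind the lists is not given in the sources used here, and their lowest −log10 p was 2.00 in replicate 1 and 2.02 in replicate 2. The paper also derived a set of reproducible peaks by the IDR tool. That set was not used here, and the shared regions rest on overlap of the 2 lists alone. Of 22447 and 41832 peaks, 54 and 82 off chromosomes 1 to 22 and X were left out.

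Depth per library is not in the files. Reads over each summit were solved from the deposited −log10 p and fold enrichment (−log10 p matched to under 0.001) at all 544 regions. Start sites of all transcripts came from GENCODE 44 lifted to GRCh37, while the study used version 19. Where a region held several peaks of a replicate, the widest was used. Shares have exact (Clopper-Pearson) 95% intervals and differences Newcombe intervals. No test over regions was made, since regions are not replicates. Regions were named by rule: the 12 with the best worse-of-both ranks, all at listed genes, the 4 genes with most regions, the 4 largest and 4 smallest replicate ratios, and the 4 nearest to a start among those past −log10 q 5. The regions, words and gene lists were chosen with earlier results of these data known. The calculations were checked on simulated data and run in Python 3.11.15 with pandas 2.3.3, scipy 1.17.1, statsmodels 0.14.6 and pysam 0.24.0. Overlap rule, transcript set, distance, thresholds, windows and single replicates were varied. One listed gene is not reported here.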

Additional observations from a re-analysis of the deposited data

How the results depend on the processing

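Of 90 values recomputed under other settings, 63 stayed within a set tolerance of the value reported, and 27 moved. The tolerance was the 95% interval for shares, 1 SD between replicates for fold enrichment and GC content, and a factor of 1.5 for the number of regions. For fold enrichment this was wide, since the SD of 1.91 reflects the shift between replicates. A change from 5.12 to 3.63 without replicate 1 still counted as within it. The 544 regions became 378 with start sites within 1 kb and 282 within 500 bp. The share past the q threshold in both replicates, 51.1%, became 59.1% with peaks of q 0.05 or less only and 30.7% at a −log10 q of 10. The share of summits close to a start, 44.1% at 500 bp, was 30.9% at 250 bp and 63.4% at 1 kb. The forkhead share, 48.2%, was 33.5% within 25 bp, 57.0% within 100 bp, 20.04% for GTAAACA and 14.5% for the reversed letters. The AP-1 share, 17.3%, was 6.43% within 25 bp and 28.1% within 100 bp. Median GC content, 41.6%, was 42.6% with starts within 1 kb, 43.6% within 500 bp and 42.5% within 250 bp of the summit. In control windows 500 bp towards lower coordinates the forkhead share was 6.99% and the AP-1 share 3.49%. The cause of these shifts was not tested, beyond the windows and thresholds that define them.

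When the peaks of a single replicate were used, the number of regions was 835 (without replicate 2) to 1692 (without replicate 1), the median fold enrichment 3.10 to 3.63, the share past the q threshold 34.6 to 43.3%, the share within 500 bp of a start 38.6 to 38.8%, the forkhead share 33.3 to 35.5%, the AP-1 share 11.4 to 12.1% and the GC content 42.6% in both. Restricting lncRNA genes to those of the earlier GRCh37 annotation left 411 regions, and using the 5′ ends of genes alone left 385. Both restrictions were chosen after seeing the data, and the forkhead shares were 45.7% and 51.4%. No paired analysis was possible because the peak lists are of a single group and the result comes from no test. Regions rest on a median of 23 and 43 reads, which limits the precision of single ratios.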
